A study of Drosophila melanogaster with 6 samples.

Results

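The genes described here are 10 *Drosophila* genes of lipid storage and lipolysis, *bmm*, *Hsl*, *Lsd-1*, *Lsd-2*, *mdy*, *desat1*, *Lpin*, *tobi*, *AkhR* and *Lip4*. They were chosen by name, with earlier results of these data known, from the 14604 genes of an RNAseq table. Of these, 6 stand in the table under the given symbol. The other 4 carry older symbols there and were found through their gene identifiers, *Hsl* as CG11055, *Lpin* as CG8709, *tobi* as CG11909 and *AkhR* as GRHR. The libraries come from pooled heads of wild type *Canton S* males aged 3 to 5 days. The PQ-fed group (3 libraries) was kept for 12 h on a sucrose solution (2.5%) with 5 mM paraquat, a herbicide that generates superoxide. The sucrose-fed group (3 libraries) had the same solution without paraquat for the same time. The design text of the series calls the replicates biologically independent, and a further replicate per feeding that the study describes was not analysed here. Values are RPKM, read counts scaled by gene length and library size, and no value in the table lies below 1, which was read as a floor.

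Flies store energy as triglyceride in lipid droplets, mainly in the fat body, a tissue that fulfils the roles of liver and adipose tissue and that also lies in the head around the brain. Perilipins coat the droplet, lipases release fatty acids from it, and acyltransferases and lipin build new triglyceride. Adipokinetic hormone, acting through its receptor, and insulin, acting through the transcription factor FOXO, set the balance between storage and release. In whole heads, fewer cells of a type and less RNA per cell cannot be told apart.

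None of the 10 genes passed the test between PQ-fed and sucrose-fed heads (limma, adjusted p under 0.05 over all tested genes), 0 higher and 0 lower. The background rate of calls was 0.0812%, 8 of 9853 tested genes, all higher, which became 5 without PQ replicate 1 and 0 without any other single library. At an unadjusted p under 0.05 there was 1 member, *Lip4*, higher in PQ-fed heads, where 3.89% of all tested genes passed that mark (2.21% higher and 1.67% lower). The log2 fold change was positive for 8 of the 10 genes and negative for 2, with a median of 0.09, beside a median of -0.02 over all tested genes, of which 42.2% were positive. All 10 genes were tested, and their adjusted p lay between 0.951 and 0.959. Their values ran from 9.59 to 798 RPKM, so no member was at the floor in any library.

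**Figure D1:**
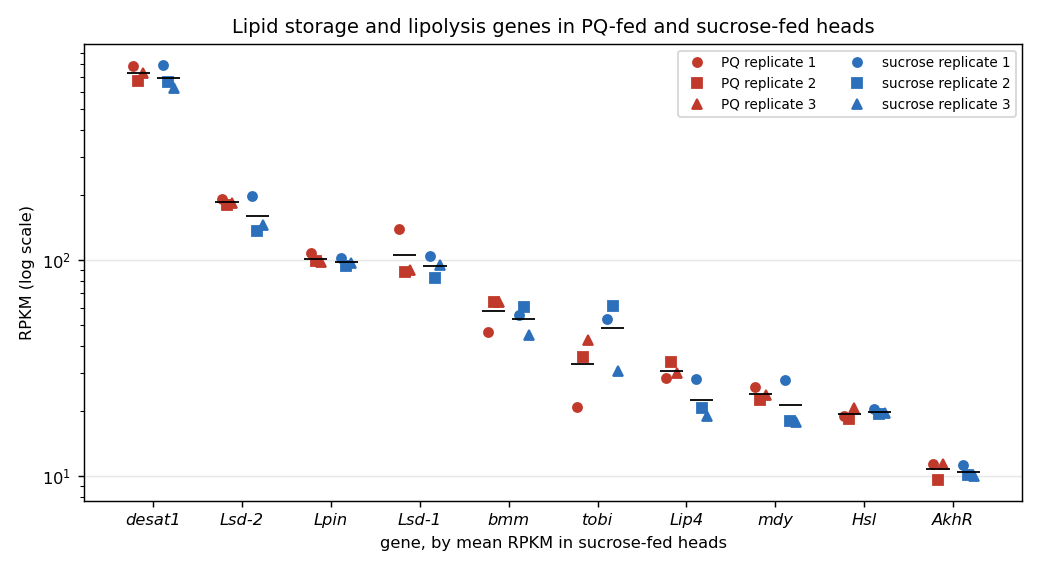
RPKM of the 10 genes (log axis) in each of the 3 PQ-fed (red) and 3 sucrose-fed (blue) libraries, ordered by the sucrose-fed mean; symbols mark the replicate and black lines the group mean. *desat1* stands above all others, and the PQ-fed and sucrose-fed libraries overlap for every gene except *Lip4*.

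The levels covered a wide range, and RPKM allows a comparison between genes because it is scaled by length. *desat1*, the acyl-CoA desaturase that makes monounsaturated fatty acids, was the most abundant, with a mean of 728 ± 55.0 RPKM (SD, n = 3) in PQ-fed and 696 ± 90.3 RPKM (SD, n = 3) in sucrose-fed heads. It exceeded 99.4% of the tested genes in PQ-fed and 99.3% in sucrose-fed heads. *Lsd-2* came next, followed by *Lsd-1* and *Lpin*, whose ranges overlapped in both groups. *bmm* and *tobi* overlapped in sucrose-fed but not in PQ-fed heads, and *tobi* and *Lip4* overlapped in PQ-fed but not in sucrose-fed heads. *Lip4*, *mdy* and *Hsl* were next in both groups, each overlapping its neighbour in sucrose-fed heads and none in PQ-fed heads. *AkhR* was the lowest in both groups, with 10.8 ± 1.04 RPKM (SD, n = 3) in PQ-fed and 10.5 ± 0.664 RPKM (SD, n = 3) in sucrose-fed heads, above 37.5% and 36.5% of tested genes.

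*Lip4*, an acid lipase gene known in flies as a FOXO target, lies on chromosome 2L of dm3 from 10529417 to 10531561. In PQ-fed replicates 1, 2 and 3 it measured 28.3, 33.6 and 30.0 RPKM, against 28.2, 20.5 and 19.0 RPKM in the sucrose-fed replicates. Every PQ-fed library lay above every sucrose-fed library, though the lowest PQ-fed and the highest sucrose-fed value, both of replicate 1, nearly coincide. It was the only one of the 10 genes whose groups were apart, where 7.57% of tested genes were apart in either direction and 3.11% with PQ-fed libraries higher. The means were 30.6 ± 2.73 RPKM (SD, n = 3) in PQ-fed and 22.6 ± 4.92 RPKM (SD, n = 3) in sucrose-fed heads. The log2 fold change was 0.45 ± 0.15 (SE), at which limma gave an unadjusted p of 0.0230 and an adjusted p of 0.951. The exact permutation test gave p = 0.10 (two-sided), the smallest that 3 against 3 allow. With 1 library left out the log2 fold change lay between 0.34, without sucrose replicate 3, and 0.62, without sucrose replicate 1. Over all alternatives limma's adjusted p for *Lip4* ranged from 0.0250, the sole value under the threshold, with library quality weights, to 1.

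*bmm* (brummer) encodes the main triglyceride lipase of the droplet, the fly counterpart of mammalian ATGL, and occupies chromosome 3L of dm3 from 14769596 to 14779523. It measured 46.3, 63.8 and 63.9 RPKM in the PQ-fed replicates, against 55.3, 60.3 and 44.7 RPKM in the sucrose-fed replicates. The groups overlap, with PQ replicate 1 and sucrose replicate 3 low and the other 4 libraries above them. The log2 fold change was 0.11 (standard error 0.16, unadjusted 95% interval -0.27 to 0.50), and the exact permutation p was 0.50 (two-sided).

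*Hsl*, the hormone-sensitive lipase, which acts mainly on diacylglycerol in mammals, sits on dm3 chromosome 2R from 16145157 to 16149241. It gave 18.9, 18.5 and 20.6 RPKM in PQ-fed heads, against 20.3, 19.3 and 19.5 RPKM in sucrose-fed heads. These 6 values are among the closest of the set, and its log2 fold change was -0.03 (standard error 0.07, interval -0.20 to 0.14). In fold terms that interval runs from 0.872 to 1.10.

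Of the perilipins, *Lsd-1* is required for hormone-stimulated lipolysis, and *Lsd-2* shields the stored fat from lipases. *Lsd-1*, on dm3 chromosome 3R from 19589579 to 19592388, measured 139, 87.5 and 89.9 RPKM in PQ-fed replicates, against 104, 82.8 and 94.4 RPKM in sucrose-fed replicates. PQ replicate 1 stood above the other 5 libraries, which overlap between the groups. The log2 fold change was 0.14 (standard error 0.19, interval -0.31 to 0.60), and it became -0.07 without PQ replicate 1 and 0.26 without PQ replicate 2. *Lsd-1* shares 148 bases with CG10214 on the other strand, and whether the counting used strand is not given in the sources used here.

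*Lsd-2*, on chromosome X of dm3 from 14965489 to 14970236, measured 192, 179 and 184 RPKM in the PQ-fed libraries, against 196, 135 and 146 RPKM in the sucrose-fed libraries. The PQ-fed values were close together, while sucrose replicate 1 stood above all of them and the other sucrose-fed libraries below. Its log2 fold change was 0.24 (standard error 0.14, interval -0.09 to 0.57), with an exact permutation p of 0.40 (two-sided). Leaving out sucrose replicate 1 gave 0.40, and leaving out sucrose replicate 2 gave 0.13.

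Among the genes of synthesis, *mdy* (midway) encodes diacylglycerol acyltransferase 1, which catalyses the last step to triglyceride. It lies on chromosome 2L of dm3 from 16816665 to 16826991 and measured 25.8, 22.5 and 23.7 RPKM in PQ-fed heads, against 27.9, 18.1 and 17.9 RPKM in sucrose-fed heads. Sucrose replicate 1 was again the highest of all libraries, and the remaining sucrose-fed libraries were below every PQ-fed library. The log2 fold change was 0.20 (standard error 0.17, interval -0.22 to 0.62), and leaving out 1 library moved it to between 0.09, without sucrose replicate 3, and 0.41, without sucrose replicate 1. The interval of *mdy* holds 4429 bases of CG13280 and 4057 bases of *Cas* on the other strand. *Cas* averaged 6.20 RPKM in PQ-fed and 6.36 RPKM in sucrose-fed heads, and CG13280 1.02 and 1.24 RPKM in the same groups.

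*Lpin* encodes lipin, the phosphatidate phosphatase that supplies diacylglycerol, and spans positions 4024992 to 4033482 of dm3 chromosome 2R. It measured 107, 98.3 and 97.3 RPKM in the PQ-fed libraries, against 102, 93.7 and 97.0 RPKM in the sucrose-fed libraries. The values of both groups lie in one narrow range, and the log2 fold change was 0.05 (standard error 0.07), with an interval of -0.11 to 0.20. *desat1*, on dm3 chromosome 3R from 8265322 to 8273338, measured 784, 674 and 727 RPKM in PQ-fed and 798, 666 and 625 RPKM in sucrose-fed heads. Replicate 1 was the highest library of each group, and the log2 fold change was 0.07 (standard error 0.12, interval -0.21 to 0.35).

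*AkhR*, the receptor of adipokinetic hormone, which triggers fat release, lies on chromosome 2L of dm3 from 6711284 to 6716183. It measured 11.4, 9.59 and 11.4 RPKM in PQ-fed heads, against 11.2, 10.2 and 9.98 RPKM in sucrose-fed heads, and its log2 fold change was 0.04 (SE 0.10, interval -0.19 to 0.27). The groups overlap throughout. Its ligand gene *Akh*, expressed in the corpora cardiaca outside the brain, was at the floor in every library.

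*tobi*, target of brain insulin, encodes an alpha-glucosidase whose transcript depends on the insulin-producing cells, and spans positions 21170578 to 21172634 of dm3 chromosome 3R. It measured 21.0, 35.4 and 42.7 RPKM in the PQ-fed replicates, against 53.4, 61.1 and 30.7 RPKM in the sucrose-fed replicates. It was the most variable gene of the set, with a 2.04-fold range within the PQ-fed and a 1.99-fold range within the sucrose-fed group, and sucrose replicate 3 lay below 2 of the PQ-fed libraries. The log2 fold change of -0.55 carried an SE of 0.33 (interval -1.34 to 0.25), limma's adjusted p was 0.951, and the exact permutation p was 0.30 (two-sided). It was -0.25 without PQ replicate 1, -0.84 without sucrose replicate 3, and 0.06 with library quality weights.

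**Figure D2:**
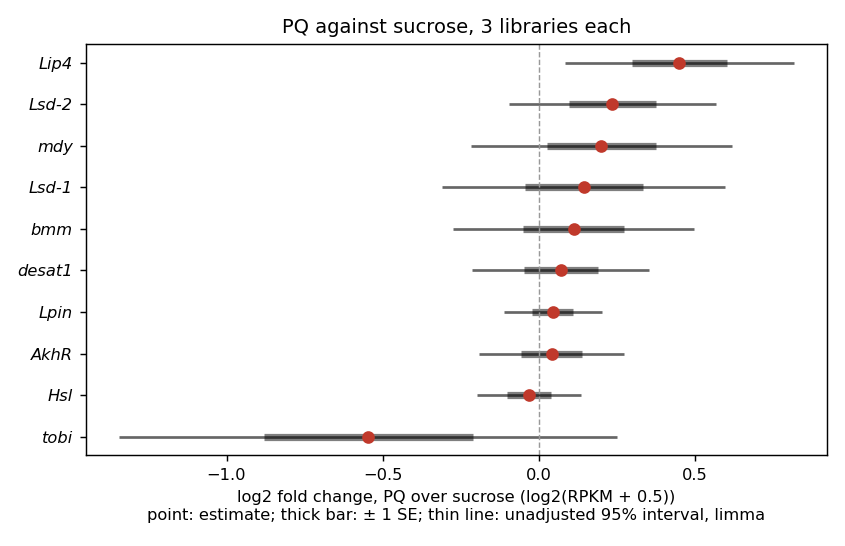
Log2 fold change of PQ-fed over sucrose-fed heads for each gene on the log2(RPKM + 0.5) scale, with ± 1 standard error (thick bars) and unadjusted 95% intervals (thin lines) from limma, 3 libraries per group. The interval of *Lip4* (0.08 to 0.82) lies above 0, those of the other 9 genes span 0, and *tobi* has the widest.

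Ratios between members within a library do not depend on how libraries were scaled, and 4 were compared. The ratio of *bmm* to *mdy*, lipase against synthesis enzyme, was 1.80, 2.84 and 2.69 in the PQ-fed libraries, against 1.98, 3.34 and 2.51 in the sucrose-fed libraries. In both groups replicate 1 had the lowest ratio. The log2 ratio differed by -0.09 between the groups, and the exact permutation p was 0.80 (two-sided; adjusted p = 0.80 over the 4 ratios). For *bmm* to *Hsl*, the 2 lipases, the difference was 0.14, for *Hsl* to *Lsd-1* it was -0.18, and for *Lsd-1* to *Lsd-2*, the 2 perilipins, it was -0.09. Their exact permutation p values were 0.60, 0.80 and 0.80, all 0.80 after adjustment. *Lsd-1* reached 0.727 of the *Lsd-2* level in PQ replicate 1, against 0.488 and 0.489 in the other PQ-fed libraries and 0.529 to 0.648 in the sucrose-fed libraries.

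Many of the genes stood high in the libraries numbered 1. For 6 of the 10 genes (*Lsd-1*, *Lsd-2*, *mdy*, *desat1*, *Lpin* and *AkhR*) replicate 1 was the highest library of both groups, a pattern shown by 16.1% of all tested genes. The opposite, replicate 1 lowest in both groups, was seen for 0 of the 10 genes and 24.4% of all tested genes. *Lsd-1* was 0.65 higher on the log2 scale in PQ replicate 1 than in the mean of the other PQ-fed libraries, and 0.23 higher in sucrose replicate 1 than in the others of its group. For *mdy* these differences were 0.15 and 0.62, and for *Lsd-2* 0.08 and 0.48. *tobi*, in contrast, was -0.88 in PQ replicate 1 and 0.30 in sucrose replicate 1 relative to the others. *Lip4* differed by -0.16 in PQ replicate 1 and by 0.50 in sucrose replicate 1. With both libraries numbered 1 left out, leaving 2 per group, the log2 fold change was 0.67 for *Lip4*, 0.37 for *Lsd-2*, 0.36 for *mdy*, 0.29 for *bmm*, 0.00492 for *Lsd-1* and -0.15 for *tobi*, and 0 of the 10 genes passed limma's test (adjusted p = 0.160 for *Lip4*).

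**Figure D3:**
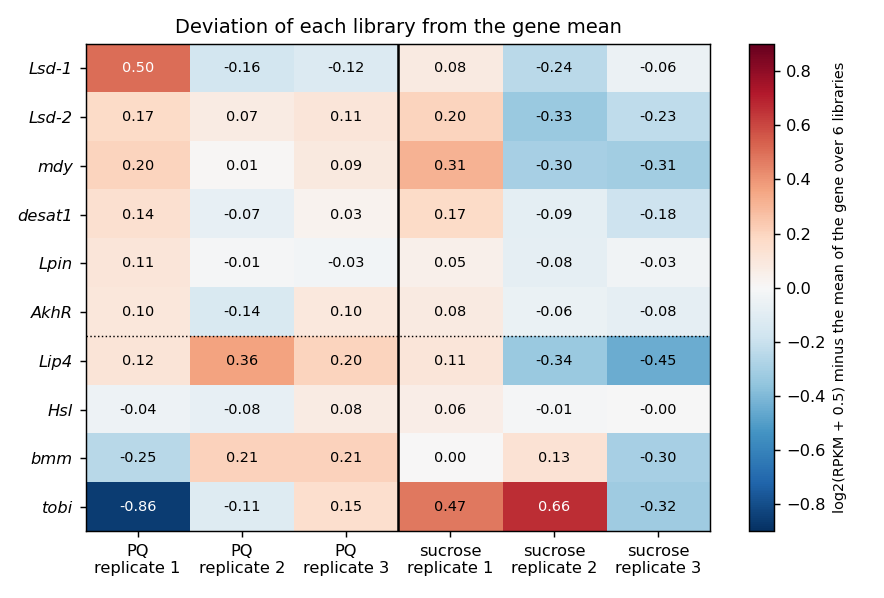
Deviation of each library from the mean of the gene over the 6 libraries, in log2(RPKM + 0.5) units (red above, blue below), PQ-fed libraries on the left and sucrose-fed on the right. The 6 genes above the dotted line are highest in replicate 1 of both groups, and *tobi* shows the widest spread, with -0.86 in PQ replicate 1.

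Other genes of lipid metabolism were examined in lists chosen by function, with earlier results of these data known. Of their tested genes, 0 were called in either direction by limma at an adjusted p under 0.05. Among 8 tested genes of triglyceride synthesis, 6 had positive and 2 negative values (median 0.11), where 42.2% of all tested genes were positive. In PQ-fed heads 1 gene of the 8 was higher at limma's unadjusted p under 0.05, against 2.21% of all tested genes. That gene was *Dgat2* (CG1942 in the table), an acyltransferase that catalyses the same step as *mdy*. It measured 6.74, 8.38 and 5.81 RPKM in PQ-fed heads, against 3.11, 2.00 and 1.89 RPKM in sucrose-fed heads. The groups do not overlap, and 3.11% of all tested genes were separated in this direction. Its log2 fold change was 1.41 ± 0.20 (SE), with adjusted p = 0.147 from limma (unadjusted p = 2.2e-04), and it lay between 1.28 and 1.60 with 1 library left out. CG1941, another gene of this acyltransferase family, had a log2 fold change of 0.10, and CG1946, a further one, was at the floor in every library. Whether reads of these related genes were separated is not given in the sources used here. In the same list, *Agpat4*, *mino* and *Agpat2*, acyltransferases of earlier steps, had log2 fold changes of 0.30, 0.24 and 0.12.

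Of 30 neutral and acid lipase genes listed besides the members, 17 were at the floor in every library and 13 were tested. These had 11 positive and 2 negative values (median 0.12), against 42.2% positive over all tested genes. Of these genes 2, CG5966 and CG31089, were higher in PQ-fed heads at limma's unadjusted p under 0.05, against 2.21% of all tested genes. CG5966, a lipase of the pancreatic type, measured 35.6, 33.2 and 33.1 RPKM in PQ-fed heads, against 26.7, 18.2 and 11.9 RPKM in sucrose-fed heads. The PQ-fed values were nearly equal and the sucrose-fed ones spread below them, and the log2 fold change was 0.90 ± 0.26 (SE; limma's adjusted p = 0.951). It lay between 0.61 and 1.18 with 1 library left out. The acid lipase genes CG31089 and CG31871 also had every PQ-fed library above every sucrose-fed library, with log2 fold changes of 0.21 and 0.22, and CG31089 was near the floor, at 1.25 to 1.50 RPKM in PQ-fed and 1.09 to 1.16 RPKM in sucrose-fed libraries. In all, 4 of the 13 genes, among them *sws* at a log2 fold change of 0.07, were separated in this direction (3.11% of all tested genes). *Lip2* had a log2 fold change of 0.29, and its groups overlapped.

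**Figure D4:**
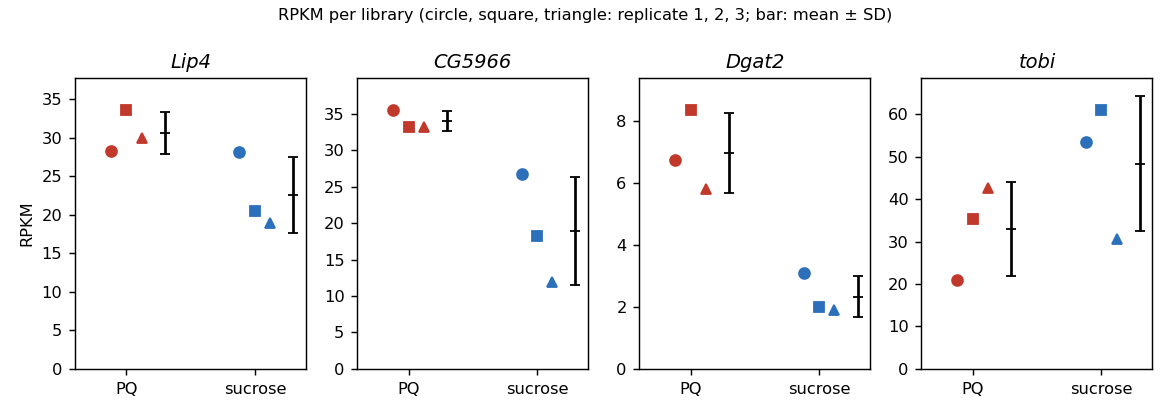
RPKM of *Lip4*, CG5966, *Dgat2* and *tobi* in the 3 PQ-fed and 3 sucrose-fed libraries (axes from 0; symbols mark replicates, black bars the mean ± SD). PQ-fed libraries lie above sucrose-fed libraries for the first 3 genes, by a narrow margin for *Lip4*, while the groups overlap for *tobi*.

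Among 21 tested enzymes of fatty acid beta-oxidation, 19 had positive and 2 negative values (median 0.11), against 42.2% positive over all tested genes. Against 2.21% of all tested genes, 1 of the 21 was higher in PQ-fed heads at limma's unadjusted p under 0.05. It was *yip2*, a thiolase, with 115 ± 4.69 RPKM (SD, n = 3) in PQ-fed and 93.4 ± 15.9 RPKM (SD, n = 3) in sucrose-fed heads, and its log2 fold change was 0.31 ± 0.12 (SE; limma's adjusted p = 0.951). *Mfe2*, the multifunctional enzyme of peroxisomes, had a log2 fold change of 0.19 while *Etf-QO*, which passes electrons to the respiratory chain, was at 0.24 and CG4860 at 0.21. In 12 of the 21 genes replicate 1 was the highest library of both groups, against 16.1% of all tested genes. The list median lay between 0.05 and 0.19 with 1 library left out. Sucrose replicate 3 was the lowest library for *yip2* (77.5 RPKM), *Mfe2* (37.3 RPKM) and *Etf-QO* (35.7 RPKM), and sucrose replicate 2 for CG4860 (2.80 RPKM). The genes share the same libraries, so their signs are not independent of each other.

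Genes of fatty acid synthesis and desaturation were divided, with 6 positive and 7 negative values among 13 tested (median -0.0027) and 0 at an unadjusted p under 0.05. Over all tested genes 42.2% were positive and 3.89% passed that mark. *FASN1*, the fatty acid synthase, measured 204, 122 and 132 RPKM in PQ-fed heads, against 211, 137 and 148 RPKM in sucrose-fed heads, so that replicate 1 stood above the others in each group. *ATPCL*, which supplies acetyl-CoA, was at -0.07 and CG9747, a desaturase, at -0.20. *ifc*, a sphingolipid desaturase, had every PQ-fed library below every sucrose-fed library at a log2 fold change of -0.09, a separation shown by 4.47% of all tested genes. Lipid transport and droplet proteins had 8 positive and 8 negative values (median -0.0067), with 0 at an unadjusted p under 0.05, beside the same shares of all tested genes. The largest was *Apoltp*, the lipid transfer particle, with 16.6 ± 5.03 RPKM (SD, n = 3) in PQ-fed and 11.3 ± 3.37 RPKM (SD, n = 3) in sucrose-fed heads and a log2 fold change of 0.54 (SE 0.26). *Jabba*, a droplet protein that binds histones, was at 0.21, *Seipin*, which acts in droplet formation, at -0.14 and *Cct2*, of phosphatidylcholine synthesis, at -0.08.

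Of the genes of adipokinetic hormone and insulin signaling, 21 were tested, with 16 positive and 5 negative values (median 0.06) and 0 at an unadjusted p under 0.05. Over all tested genes 42.2% were positive and 3.89% passed that mark. *Ilp5*, an insulin-like peptide of the brain, averaged 22.3 ± 2.83 RPKM (SD, n = 3) in PQ-fed and 29.9 ± 9.06 RPKM (SD, n = 3) in sucrose-fed heads, and *Ilp2*, another, had a log2 fold change of -0.18. *Ilp3*, a further one, was at 0.03 (SE 0.55), with values from 2.96 to 12.0 RPKM. *Thor*, a FOXO target that represses translation, had a log2 fold change of 0.20 and *InR*, the insulin receptor, one of 0.31. With 1 library left out *InR* lay between 0.10 and 0.52, *Thor* between 0.10 and 0.32, *Ilp5* between -0.59 and -0.16 and *Ilp2* between -0.30 and -0.07. Among 6 tested alpha-glucosidases other than *tobi*, 4 had negative and 2 positive values (median -0.07), with 0 at an unadjusted p under 0.05. The shares of all tested genes are again 42.2% positive and 3.89% under that mark. The lowest was *Mal-B1*, with a log2 fold change of -0.21, followed by *LvpH* at -0.16 and CG30360 at -0.10, while *Mal-B2* was at 0.13.

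**Figure D5:**
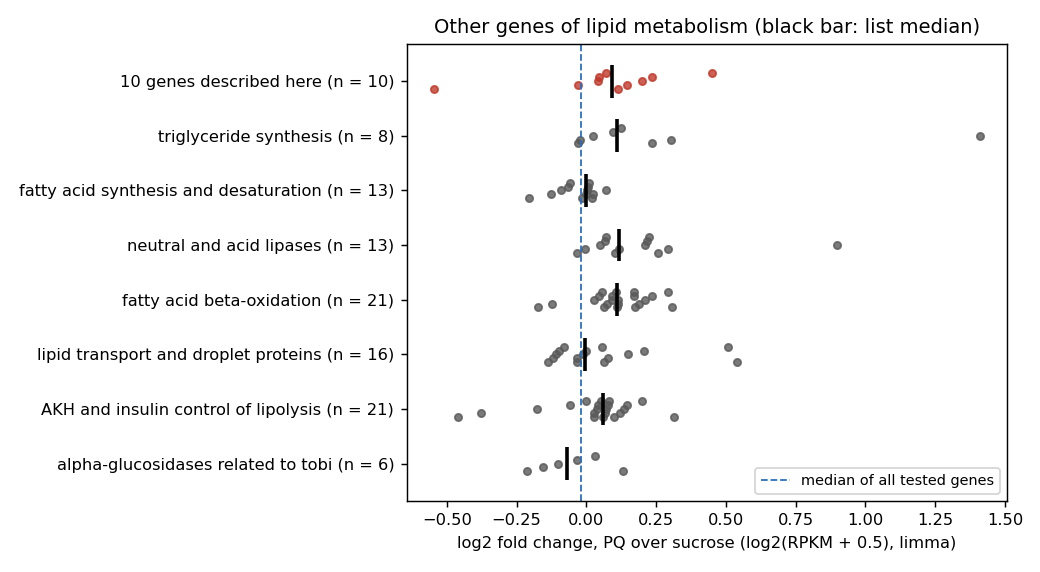
Log2 fold change (PQ over sucrose, log2(RPKM + 0.5) scale) of the 10 genes and of the tested genes of the 7 other lists; each point is a gene, black bars are list medians and the dashed line is the median of all tested genes. List medians lie between -0.07 and 0.12, and *Dgat2* (1.41) and CG5966 (0.90) lie farthest from the rest.

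Markers of cell types were read from the same libraries. Neuron, glia and photoreceptor markers were found in the heads, with 6 of 6 tested in each list. All 6 hemocyte markers were tested too, but *He*, *NimC1* and *eater* were at the floor in sucrose replicates 2 and 3. Of the testis and accessory gland markers, 0 of 6 exceeded the floor. Of 17 fat body markers, 15 were tested, and their summed level was 3239 to 3630 RPKM in PQ-fed and 2509 to 3920 RPKM in sucrose-fed libraries. Of these, 9 had positive and 6 negative values (median 0.11, and -0.01 to 0.16 with 1 library left out), where 42.2% of all tested genes were positive. Of the 15, 0 passed the test. *Fbp1* and *Fbp2* were at the floor in every library. Of 10 gut markers 8 were at the floor throughout, and the summed level of the other 2, *Amy-p* and *Amy-d*, was 28.8 to 33.0 RPKM in PQ-fed and 19.5 to 76.0 RPKM in sucrose-fed libraries. *fit*, a female- and feeding-linked transcript of head fat, measured 4.84, 2.97 and 4.69 RPKM in PQ-fed heads, against 6.16, 12.7 and 9.23 RPKM in sucrose-fed heads. Every PQ-fed library was below every sucrose-fed library, a separation shown by 4.47% of all tested genes. The log2 fold change of *fit* was -1.05 ± 0.28 (SE; limma's adjusted p = 0.951). The fat body markers with the next smallest p lay the other way, with log2 fold changes of 0.79 for *Gnmt* (162 ± 28.2 RPKM in PQ-fed and 101 ± 52.2 RPKM in sucrose-fed heads, SD, n = 3 each), 0.51 for *Pepck* (247 ± 24.1 RPKM in PQ-fed and 179 ± 55.9 RPKM in sucrose-fed heads) and 0.12 for *Gs1*. For *Gs1* every PQ-fed library lay above every sucrose-fed library, as for 3.11% of all tested genes. *Lsp2* lay on the side of *fit*, at a log2 fold change of -0.43 (-0.81 to -0.13 with 1 library left out). None of the other marker lists held a gene past the test. Positive values were found for 5 of 6 neuron markers (median 0.19), 4 of 6 hemocyte markers (median 0.26), 4 of 6 glia markers (median 0.0023) and 4 of 4 tested oenocyte markers (median 0.07), and for 0 of 6 photoreceptor markers (median -0.09) and 0 of 5 muscle markers (median -0.05). Over all tested genes 42.2% were positive. A further 2 oenocyte markers were at the floor in every library. *Cyp4g1*, the largest of the tested oenocyte markers at 0.57, was at the floor in sucrose replicate 2. Its log2 fold change ran from -0.23 to 1.10 with 1 library left out. With 1 library left out the neuron median ran from -0.03 to 0.30 and the muscle median from -0.15 to 0.10. Summed levels of neuron markers overlapped between the groups, at 1151 to 1341 RPKM in PQ-fed and 1059 to 1297 RPKM in sucrose-fed libraries. Those of hemocyte markers were 111 to 130 RPKM in PQ-fed and 120 to 130 RPKM in sucrose-fed libraries. Most of that sum came from *crq* (means of 74.5 RPKM in PQ-fed and 76.4 RPKM in sucrose-fed heads) and *Pxn* (39.1 and 39.6 RPKM). *He*, *NimC1* and *eater* reached at most 2.38 RPKM (*eater*, PQ replicate 3), so the sum says little about them. *He*, a hemocyte marker, was the other marker at limma's unadjusted p under 0.05 besides *fit*, where 3.89% of all tested genes passed that mark. It measured 1.21, 1.55 and 2.14 RPKM in PQ-fed and 1.17, 1 and 1 RPKM in sucrose-fed heads, at or near the floor. Replicate 1 was the highest library of both groups for 6 of the 15 fat body, 3 of 6 neuron and 2 of 4 oenocyte markers. This held for 0 glia, photoreceptor, hemocyte, gut or muscle markers and for 16.1% of all tested genes. Replicate 1 was the lowest of both groups for 4 of 5 muscle, 2 of 6 photoreceptor and 1 of 6 glia markers, against 24.4% of all tested genes. The part of these cell types in the values of the 10 genes was not tested.

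The transcripts whose pattern over the 6 libraries was closest to *bmm*, by root mean square difference of centred log2 values among 7792 genes with a mean of at least 5 RPKM, were CG2611 (0.0489), CG9914 (0.0516) and CG34424 (0.0615). Those closest to *tobi* were CG17189 (0.195), CG15515 (0.221) and CG2816 (0.257). All 3 had their lowest value in PQ replicate 1, as *tobi* did, which their choice by likeness over the same libraries favours. These are descriptions of 6 libraries.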

How the data were processed

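Heads of PQ-fed and sucrose-fed males were profiled by RNAseq (3 libraries each). Reads were aligned by the authors to build dm3 using TopHat2 2.0, and RPKM per gene and library were deposited. The normalization named in the study is that by trimmed means of M-values. The program that gave RPKM is not given in the sources used here. The lowest deposited RPKM is 1, at which 34.8% to 35.5% of the genes of each library stand. Read totals per library are listed by the study and are not printed here. Counts per gene were not used, so the reads behind each value and their counting error are not known, and errors are those between libraries. A further deposited table holds the fold changes and p-values of the authors' own comparison and was not used.

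RPKM values were transformed to log2(RPKM + 0.5) without further scaling and compared with limma 3.58.1 (R 4.3.3; eBayes with a mean-variance trend, Benjamini-Hochberg adjustment over all tested genes, threshold 0.05). This scale understates the change of low genes. Genes at the floor in all libraries, 4751, were left out, and 9853 were tested. Single values were compared with exact permutation tests (scipy 1.17.1), which cannot go below 0.10 for 3 against 3. The procedure was tested on simulated data with independent values per gene and library. These lack the deviations that genes share within a library, so that test does not show how the calls behave under them. Members and gene lists were chosen with earlier results of these data known. Symbols were matched through RefSeq gene identifiers (release 6 names only); of 211 list entries 1 was not found. By rule, the text names all 10 genes and up to 4 genes of each other lipid list with the smallest p. List genes named beyond these (*Akh*, *Ilp3*, CG1941, CG1946, *sws* and cell type markers) were chosen after their values were seen. Alternatives were other pseudocounts (0.1 and 1), filters, normalizations (trimmed means, quantile and median), variance models, a replicate block and left-out libraries. Figures were drawn with matplotlib 3.10.9.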

Additional observations from a re-analysis of the deposited data

How the results depend on the processing

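The count of 0 members past the test held under every alternative except library quality weights, where 1 member (*Lip4*, log2 fold change 0.71) and 3 genes of the other lipid lists (*Dgat2*, CG5966 and *yip2*) passed. That fit called 245 genes in all and rests mostly on 2 libraries, with weights of 3.85 for PQ replicate 2 and 4.57 for sucrose replicate 3 against 0.355 to 0.860 for the others. In it the log2 fold changes of *Lsd-1* (-0.038), *AkhR* (-0.0076), *tobi* (0.056), *Agpat2* (-0.038) and *Agpat4* (-0.028) had the opposite sign, and the cause was not tested. The count over all genes, 8, was 5 with a pseudocount of 0.1, 1 with no filter, 0 with quantile normalization, 0 without a variance trend, 4 with a replicate block, 0 without both libraries numbered 1, and 0 to 5 with 1 library left out (5 without PQ replicate 1, 0 without any other). Without both libraries numbered 1, *Hsl* was at 0.0053 and CG30360 at 0.039. With 1 library left out, 9 of the 10 members (not *Lip4*) moved by over 1.5 times, and the sign changed for 4. Of the 28 other lipid genes named by rule, 19 moved by over 1.5 times, and the sign changed for 3. Values ranged from -0.0093 to 0.27 for *bmm*, -0.076 to 0.00064 for *Hsl*, -0.072 to 0.26 for *Lsd-1*, 0.13 to 0.40 for *Lsd-2*, 0.093 to 0.41 for *mdy*, -0.0037 to 0.17 for *desat1*, 0.0021 to 0.080 for *Lpin*, 0.00051 to 0.12 for *AkhR*, -0.043 to 0.28 for *Agpat2*, -0.35 to 0.063 for *FASN1* and -0.24 to 0.032 for CG30360. The log2 ratio differences ranged from -0.27 to 0.11 for *bmm* to *mdy*, 0.030 to 0.28 for *bmm* to *Hsl*, -0.32 to 0.056 for *Hsl* to *Lsd-1* and -0.28 to 0.0043 for *Lsd-1* to *Lsd-2*.

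The deviations of same-numbered libraries had Pearson r of 0.41, 0.06 and 0.05 for numbers 1, 2 and 3 (over genes, not independent of each other), against -0.36 to 0.34 for differently numbered libraries (0.34 for PQ 3 with sucrose 2, 0.21 for PQ 2 with sucrose 3), so the numbers were not treated as pairs. With the replicate block 0 members passed. Groups of 3 allow no exact p under 0.10, so a missed threshold does not show equal levels.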
